A study of Homo sapiens with 6 samples.

Results

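Cystine import and glutathione defence was followed through 10 genes, chosen as the rows for SLC7A11, SLC3A2, GCLC, GCLM, GSS, GSR, GPX4, CHAC1, AIFM2 and TXNRD1. All 10 had a row among the 53719 of the count table, and all 10 were among the 19721 genes with enough counts to be tested. The samples were 6 RNA-seq libraries of H9, an established line of human embryonic stem cells, all grown in RSeT, a commercial medium meant to hold a naive-like state, and all transfected with a gapmer 48 h before RNA was taken. A gapmer is an antisense oligonucleotide with a DNA core that recruits RNase H to the RNA it pairs with. In the 3 knockdown libraries (a, b and c) the gapmer was directed at ALR, the alpha satellite RNA that human centromere repeats give rise to, and in the 3 control libraries it was a control gapmer; no group was left without transfection. Values of the libraries of a group are given in the order a, b, c. The labels do not say whether libraries of a group came from separate cultures, so p-values measure the spread between these libraries, which may be technical. A single line was used, and the depletion of ALR was not checked here, because the gene rows used do not measure it.

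Cystine, the oxidised pair of the amino acid cysteine, enters cells through system xc-, a dimer of the light chain SLC7A11 and the heavy chain SLC3A2, in exchange for glutamate. Inside the cell it is reduced to cysteine, which limits the synthesis of glutathione by glutamate-cysteine ligase (GCLC with GCLM) and glutathione synthetase (GSS). Glutathione then serves GPX4, which reduces lipid peroxides and so holds off ferroptosis, an iron-dependent form of cell death. SLC7A11 is known to be driven by the transcription factors ATF4 and NRF2.

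Total counts ran from 25087629 to 36576752 per library. Knockdown library a stood apart from the others, with counts in 29678 rows against 25898 to 26788 in the other 5. The mitochondrial share of counts was 2.45 to 2.63% in knockdown and 1.76 to 2.50% in control libraries. Of the pluripotency markers, POU5F1 had a mean of 133 CPM (a count scaled to a common library size, here with TMM factors) in knockdown and 99.8 in control libraries (log2 fold change 0.42 ± 0.10, edgeR adjusted p = 0.0948, so not past the threshold), and NANOG had 194 and 181. The 10 shared pluripotency markers together summed to 6618 to 7385 CPM in knockdown and 6553 to 6686 in controls, and the median of the 9 tested was 0.004 on the log2 scale. The summed level of the 12 naive markers was 193 to 209 CPM in knockdown and 192 to 195 in control libraries. Of the 10 primed markers 9 had a row, with THY1 at 0 in all libraries, and these 9 summed to 897 to 969 and 883 to 904. KLF17, a marker of the naive state, had 1 to 10 counts per library, and ZIC2, a primed marker, had a mean of 11.6 and 11.5 CPM. The row of SOX2, a shared pluripotency marker, was at 0 in all 6 libraries. Among the related genes, so were the rows of PRDX2, SRXN1, GLRX, GPX2, GPX8, GSTM1, GSTM3 and CHAC2. The rows of ATF5, PCK2, FADS1, ALOX12, BHMT, BHMT2, SCLY and SELENOH were at 0 as well. These genes are only listed at 0, the annotation and strand setting behind the counts are not given, and no level is read from these rows. The 8 trophectoderm markers summed to at most 2.93 CPM in any library. The 6 endoderm markers summed to 8.71 to 11.7 CPM in knockdown and 7.54 to 8.51 in control libraries. The 6 mesoderm markers summed to 14.3 to 16.2 and 11.7 to 14.0, and the 5 neural ectoderm markers to 361 to 406 and 306 to 359. These sums were higher in knockdown without overlap, though 0 genes of each list passed in edgeR. The 7 fibroblast markers overlapped, at 87.7 to 96.5 and 90.5 to 104. The part of these marker values in the results was not tested.

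SLC7A11, the cystine-carrying chain, was lower after ALR knockdown, at 72.7% of its control level. SLC7A11 (ENSG00000151012.13, protein-coding, chr4:138164097-138242349, minus strand, GENCODE 29 on GRCh38) had 37.0, 36.6 and 46.1 CPM with the ALR gapmer. With the control gapmer it had 58.3, 55.8 and 50.6 CPM. The groups did not overlap, but knockdown library c and control library c lay close to each other. The means were 39.9 ± 5.40 and 54.9 ± 3.90 CPM (SD, n = 3 each), and the fitted log2 fold change was -0.46 ± 0.09 (SE), with a 95% interval of -0.67 to -0.26. Its counts ran from 1049 in knockdown library a to 1839 in control library c, so counting error was at most 3.09% of a value. The spread between libraries was larger, with a fitted biological coefficient of variation of 8.30%. Less SLC7A11 RNA per cell and fewer cells that make it cannot be told apart in such bulk RNA.

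SLC7A11 was chosen because of this contrast, so its values are a description and carry no test. For scale, 155 of the 19721 genes passed an adjusted p of 0.05 in edgeR's quasi-likelihood test, 0.786% of those tested; 128 of them were lower in knockdown (0.649%) and 27 higher (0.137%). The higher share of the calls was 17.4% with TMM scaling, 28.7% with upper-quartile scaling and 35.4% with library size alone. Of the 10 genes of the pathway, 1 passed, SLC7A11. Ordered by p it stood 152nd of the 155, close to the threshold, and 94 of the 128 lower genes had a larger change. Removing each library in turn kept SLC7A11 lower but usually cost it the threshold. Its log2 fold change was -0.41 with knockdown a, knockdown b or control a left out, -0.45 with control b left out and -0.52 with control c left out, and it passed in 0 of these 5 fits. Without knockdown library c it was -0.60, and it passed. With all 6 libraries it did not pass with library size alone (-0.43), upper-quartile scaling (-0.44) or only genes with a mean count of at least 50 (-0.46).

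**Figure D1:**
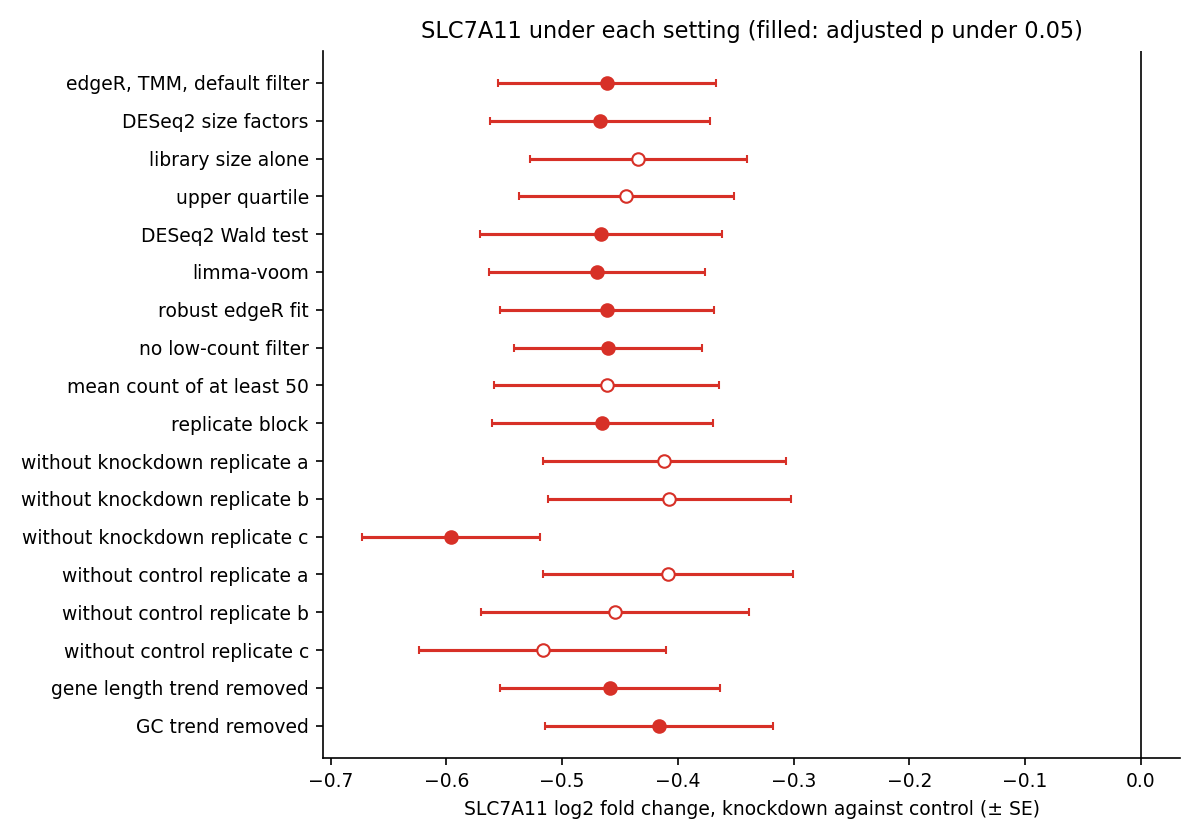
Fitted log2 fold change of SLC7A11, knockdown against control, with its SE (horizontal axis), under the reported setting and 17 alternatives (vertical axis); filled points passed an adjusted p of 0.05. All 18 points lie below 0, from -0.60 to -0.41, and 9 of the 17 alternatives are filled.

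The antisense gene SLC7A11-AS1 shares 865 exon bases with SLC7A11 on the opposite strand, and the strand setting of the counting is not given in the sources used here. Its row held 34, 21 and 37 counts with the ALR gapmer and 45, 26 and 47 with the control gapmer. These are small beside the SLC7A11 counts, and the groups overlapped.

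Set against the genes that work beside it, the same SLC7A11 counts can be written as ratios within each library, which need no scaling between libraries; they restate the values above and add no support to them. For each 100 counts of its heavy chain SLC3A2, SLC7A11 had 18.4, 17.0 and 21.5 counts with the ALR gapmer. With the control gapmer it had 26.8, 25.1 and 22.7. Every knockdown library thus had fewer SLC7A11 counts for its SLC3A2 counts than every control library. For each 100 counts of the other 9 genes together, knockdown libraries had a mean of 5.57 ± 0.841 and controls one of 7.43 ± 0.577 (SD, n = 3 each), again with no overlap.

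**Figure D2:**
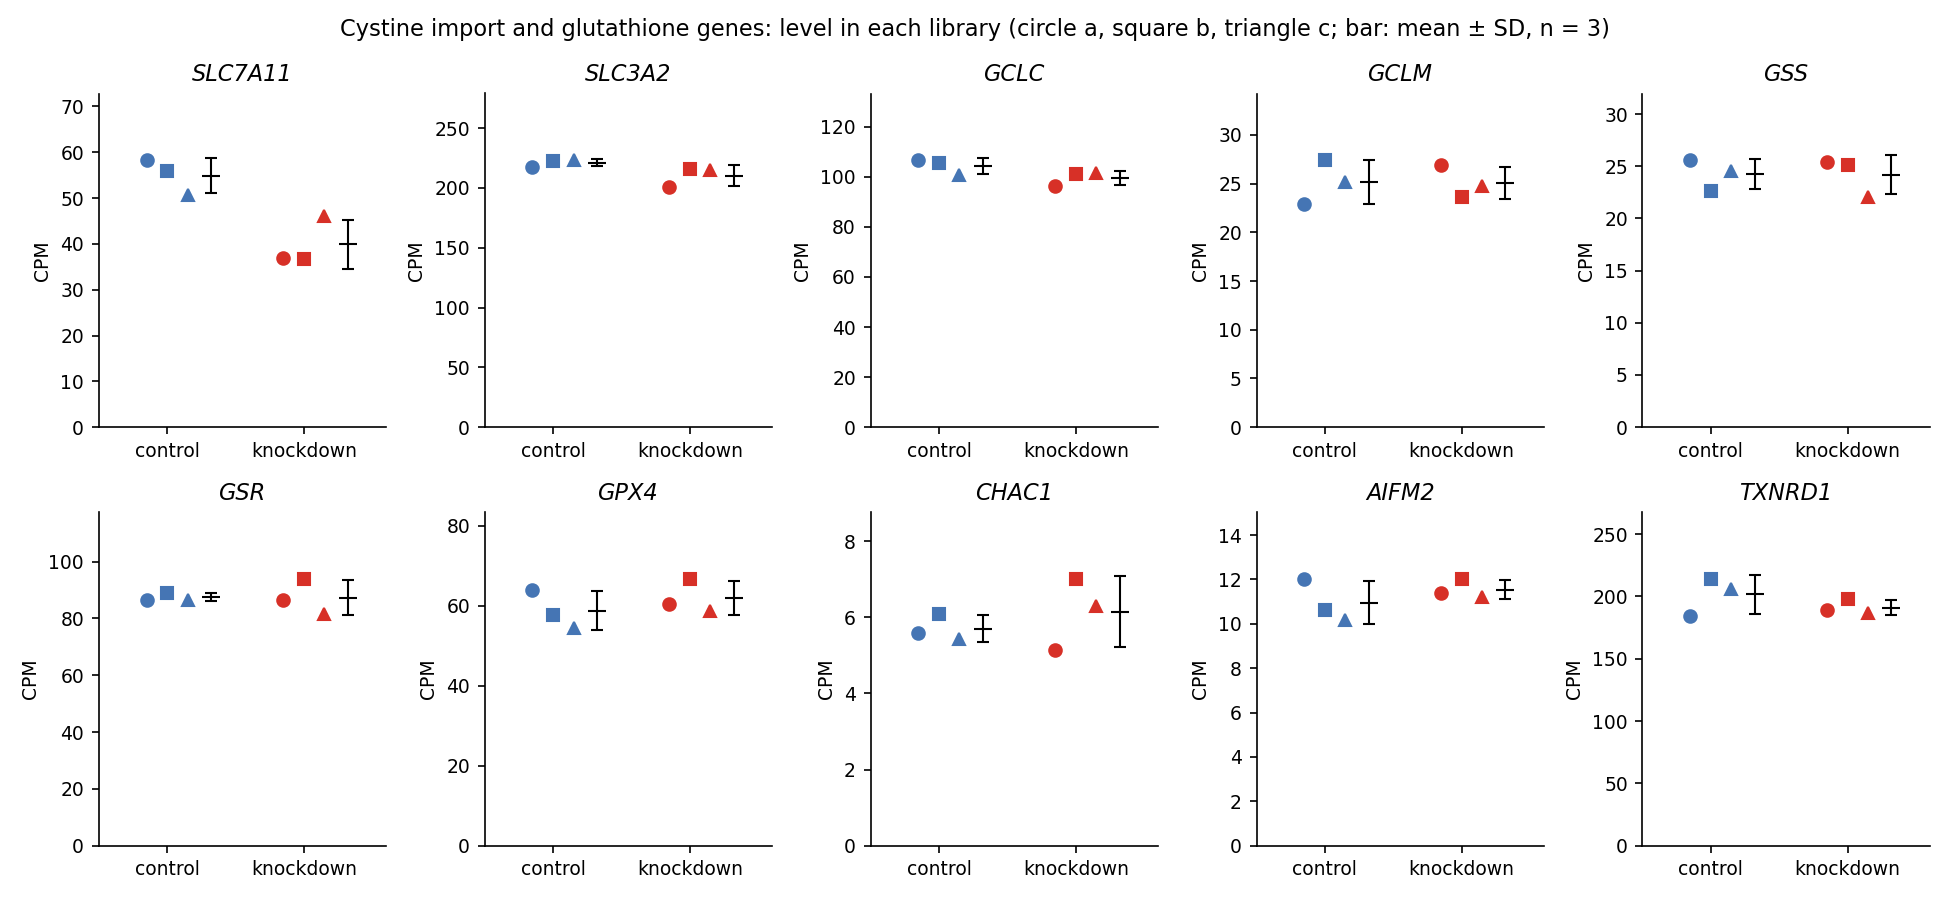
Level of each of the 10 genes in CPM (vertical axes, from 0) in the 3 control (blue) and 3 knockdown (red) libraries; the symbol gives the library letter and the black bar the mean ± SD. SLC7A11 lies at 36.6 to 46.1 CPM in knockdown and 50.6 to 58.3 in control libraries, whereas the groups overlap in 8 of the other 9 genes and lie close together in SLC3A2.

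SLC3A2 (chr11:62856102-62888875, plus strand), also known as CD98 heavy chain, brings SLC7A11 and other light chains to the plasma membrane. It had 200, 216 and 215 CPM with the ALR gapmer and 218, 223 and 223 with the control gapmer. The groups did not overlap, although knockdown library b and control library a were separated by less than 1%. The fitted log2 fold change of SLC3A2 was -0.07 ± 0.06 (SE), with a 95% interval of -0.21 to 0.06. Its size depended on the processing: with the GC trend removed it was -0.17 ± 0.08, still not past the threshold. In that same fit SLC7A11 was at -0.42 ± 0.10. SLC7A11 and SLC3A2 were the 2 of 10 genes whose groups did not overlap, both lower, against 18.9% of all tested genes in either direction, 9.37% lower and 9.55% higher. With 10 genes chosen on this contrast, nothing is read from that count.

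Short stretches of the promoters show which of these genes carry, near their start, the letters that NRF2 and ATF4 are known to bind. Promoter windows from RefSeq (GRCh38.p14, 250 bases before to 50 after a transcript start) were at hand for 7 of the 10 genes, in 12 windows; SLC7A11, GSS and GSR had none. The antioxidant response element, searched as TGACNNNGC on both strands, is the site of NRF2. It was found in 5 of the 12 windows and 4 of the 7 genes, against 13.3% of all 35116 windows and 16.1% of all genes in the table. Each line gives 10 bases on either side of a match, 5′ to 3′ on the strand of the gene, with the matched letters in capitals; a further match in the first TXNRD1 window, at its start, is not shown.
GCLM, chr1:93909446-93909474, minus strand: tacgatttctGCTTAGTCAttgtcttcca
AIFM2, chr10:70132829-70132857, minus strand: cagcacgagtGCTGAGTCAcgccccgccc
SLC3A2, chr11:62881652-62881680, plus strand: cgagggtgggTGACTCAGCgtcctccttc
TXNRD1, first of its starts, chr12:104215670-104215698, plus strand: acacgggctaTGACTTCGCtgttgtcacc
TXNRD1, another start, chr12:104286920-104286948, plus strand: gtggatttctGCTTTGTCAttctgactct
The CARE motif of ATF4, searched as TGATGCAA on both strands, was found in 1 of the 12 windows, that of CHAC1, against 0.866% of all windows.
CHAC1, chr15:40953252-40953279, plus strand: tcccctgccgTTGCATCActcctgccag
A match is a description of letters and not a measured site. The looser form TGATGNAA, which includes every TGATGCAA, was in 2 of the 12 windows (3.62% of all windows). The TATA box TATAAA was in 1 of the 12 (11.5% of all), that of GCLC.

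The 9 genes other than SLC7A11 had fitted log2 fold changes of -0.08 to 0.11, and 0 of 9 passed the adjusted threshold or an unadjusted p of 0.05 in the edgeR fit. At the unadjusted level 14.3% of all tested genes passed, 7.57% lower and 6.68% higher. Their 95% intervals reached from -0.23 to 0.43 at the widest. In all 9, the interval lay above the SLC7A11 estimate of -0.46. A decrease as large as that fitted for SLC7A11 was therefore outside the range these libraries gave for any of the others, while smaller changes in either direction were inside it. The median over the 10 genes was -0.002, beside 0.02 over all tested genes, and 7 of the 10 estimates were below 0, beside 45.6% of all tested genes.

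**Figure D3:**
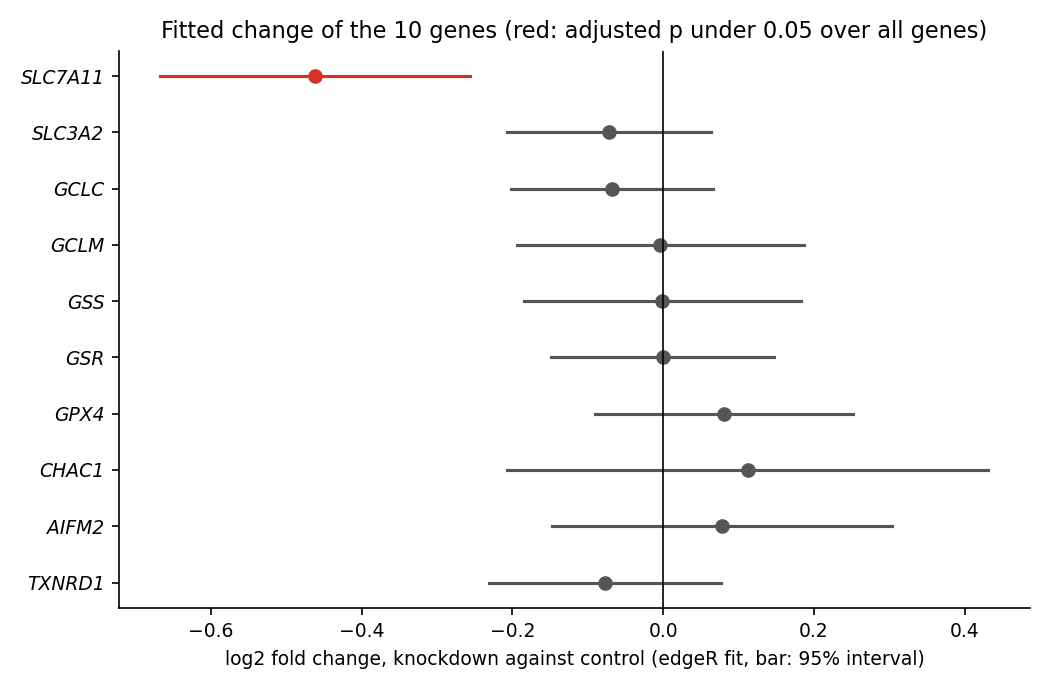
Fitted log2 fold change of each of the 10 genes, knockdown against control (horizontal axis), with its 95% interval; red marks the gene past an adjusted p of 0.05. SLC7A11 lies at -0.46 and the other 9 between -0.08 and 0.11, each with an interval that spans 0.

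The 3 genes of glutathione synthesis overlapped between the groups. GCLC (chr6:53497341-53616970, minus strand), the catalytic chain of glutamate-cysteine ligase, had 96.3, 101 and 101.3 CPM with the ALR gapmer and 107, 106 and 100.7 with the control gapmer. Knockdown library c lay above control library c, and the log2 fold change of GCLC was -0.07 ± 0.06 (95% interval -0.20 to 0.07). GCLC shares 529 exon bases with a gene on the same strand, so reads there may be uncertain. GCLM (chr1:93885205-93909456, minus strand), the modifier chain that raises the efficiency of the ligase, had 26.9, 23.6 and 24.8 CPM with the ALR gapmer and 22.9, 27.4 and 25.1 with the control gapmer. The order of the GCLM values was mixed between groups, with a log2 fold change of -0.004 ± 0.09 (95% interval -0.19 to 0.19). For each GCLM count, knockdown libraries had 3.98 ± 0.358 GCLC counts and controls 4.17 ± 0.421 (SD, n = 3 each), and these ratios overlapped. GSS (chr20:34928433-34956027, minus strand), which adds glycine in the last step, had 25.4, 25.1 and 22.1 CPM with the ALR gapmer and 25.6, 22.7 and 24.5 with the control gapmer. GSS values overlapped fully, and the log2 fold change was -0.001 ± 0.08 (95% interval -0.19 to 0.18).

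Of the enzymes that recycle or spend glutathione, GSR and GPX4 overlapped as well. GSR (chr8:30678061-30727999, minus strand), which reduces oxidised glutathione with NADPH, had 86.5, 94.0 and 81.5 CPM with the ALR gapmer and 86.6, 89.1 and 86.5 with the control gapmer. The 3 control values of GSR lay inside the range of the knockdown values, and the log2 fold change was -0.0009 ± 0.07 (95% interval -0.15 to 0.15). GPX4 (chr19:1103926-1106791, plus strand), the selenoprotein that reduces lipid peroxides in membranes, had 60.6, 66.8 and 58.7 CPM with the ALR gapmer and 64.0, 57.8 and 54.4 with the control gapmer. Control library a lay above 2 of the knockdown libraries, and the log2 fold change of GPX4 was 0.08 ± 0.08 (95% interval -0.09 to 0.25).

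CHAC1 (chr15:40952962-40956519, plus strand), which breaks down glutathione and is known as an ATF4 target, was the least abundant of the 10 in CPM. It had 5.15, 7.01 and 6.29 CPM with the ALR gapmer and 5.59, 6.09 and 5.42 with the control gapmer. Knockdown library a was the lowest of all 6 and knockdown library b the highest. The log2 fold change of CHAC1 was 0.11 ± 0.15, and its 95% interval of -0.21 to 0.43 was the widest of the 10 genes. Its sign is not fixed: the estimate was -0.003 without knockdown library b and -0.01 with the GC trend removed. CHAC1 is the gene with the exact CARE letters shown above.

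The enzymes that act in parallel with glutathione did not separate the groups. AIFM2 (chr10:70098223-70132934, minus strand), also called FSP1, recycles coenzyme Q as a lipid antioxidant. AIFM2 had 11.4, 12.0 and 11.2 CPM with the ALR gapmer and 12.0, 10.6 and 10.2 with the control gapmer, a log2 fold change of 0.08 ± 0.10 (95% interval -0.15 to 0.30). It shares 11 exon bases with H2AFY2 on the opposite strand. TXNRD1 (chr12:104215779-104350305, plus strand), the cytosolic thioredoxin reductase and a selenoprotein, can also reduce cystine. It had 189, 198 and 187 CPM with the ALR gapmer and 185, 214 and 206 with the control gapmer. The lowest and the highest TXNRD1 value were both in control libraries, and the log2 fold change was -0.08 ± 0.07 (95% interval -0.23 to 0.08). SLC3A2, GCLM, AIFM2 and TXNRD1, the genes with antioxidant response element letters shown above, had log2 fold changes of -0.08 to 0.08.

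Levels between genes were compared per length of exon, as CPM per kb of all annotated exons. In control libraries, SLC3A2 was the most abundant of the 10 at 42.7 ± 0.577 CPM per kb (SD, n = 3). TXNRD1 followed at 30.0 ± 2.28 and GPX4 at 29.1 ± 2.40, and the control libraries of these 2 overlapped. GSR had 23.3 ± 0.39 and GCLC 12.1 ± 0.369 CPM per kb. SLC7A11 was sixth at 5.69 ± 0.404, then GCLM at 4.64 ± 0.413, GSS at 3.93 ± 0.238, CHAC1 at 2.77 ± 0.168 and AIFM2 at 2.13 ± 0.188. Apart from TXNRD1 and GPX4, neighbours in this order did not overlap between control libraries. In knockdown libraries SLC7A11 had 4.14 ± 0.559 CPM per kb, and GCLM 4.63 ± 0.304, and these overlapped, with SLC7A11 above GCLM in knockdown library c (4.78 and 4.58). The order depends on the length used: with the longest transcript in place of all exons, GPX4 was second, GSS sixth, SLC7A11 seventh and AIFM2 ninth.

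SLC3A2 pairs with other light chains besides SLC7A11, and 1 of these rose. SLC7A8 (LAT2, an exchanger of neutral amino acids; ENSG00000092068.19, chr14:23125295-23183674, minus strand) had 49.0, 55.0 and 48.5 CPM with the ALR gapmer and 39.5, 38.9 and 36.5 with the control gapmer. The lowest knockdown value exceeded the highest control value, and the means were 50.8 ± 3.59 CPM after knockdown and 38.3 ± 1.58 in controls (SD, n = 3 each). SLC7A8 was thus higher by 0.41 ± 0.07 on the log2 scale (SE), past the threshold in edgeR's quasi-likelihood test with Benjamini-Hochberg adjustment (adjusted p = 0.0246). Leaving out knockdown b, control a, control b or control c raised that edgeR adjusted p to 0.107, 0.106, 0.134 and 0.189, in that order. Over all 17 alternatives it ran from 9.90e-05 to 0.189, and the direction was the same in each. SLC7A5 (LAT1, the main carrier of large neutral amino acids) had a log2 fold change of 0.04 ± 0.07, SLC7A6 of -0.09 ± 0.10, SLC7A7 of -0.04 ± 0.12 and SLC7A10 of -0.003 ± 0.37, and none of these 4 passed. SLC7A13, a light chain not known to pair with SLC3A2, had too few counts to be tested.

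The makeup of the light chain RNA differed accordingly, as a description. Per kb of exon, SLC7A11 made up 6.72, 5.95 and 8.33% of the summed light chains (SLC7A5, SLC7A6, SLC7A7, SLC7A8, SLC7A10, SLC7A11 and SLC7A13) with the ALR gapmer. It made up 10.2, 9.90 and 9.41% with the control gapmer. SLC7A8 made up 14.3, 14.4 and 14.1% in knockdown and 11.2, 11.1 and 10.9% with the control gapmer. Neither share overlapped between groups. The share of SLC7A6 did not overlap either, at 2.41, 2.54 and 2.72% in knockdown and 2.73, 2.75 and 2.95% with the control gapmer. Shares of the same sum depend on each other, however, and the CPM values of SLC7A6 itself overlapped. These were 10.4, 12.3 and 11.9 in knockdown and 12.2, 12.2 and 12.5 with the control gapmer. SLC7A5 was the largest part, with 72.4 ± 1.33% after knockdown against 72.5 ± 0.435% in controls (SD, n = 3 each), and the sum of all light chains overlapped, at 59.4 ± 3.78 and 57.8 ± 1.75 CPM per kb. SLC7A13, not known to pair with SLC3A2, made up 0.990% of this sum in knockdown library a and 0.0627 to 0.265% in the other libraries.

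**Figure D4:**
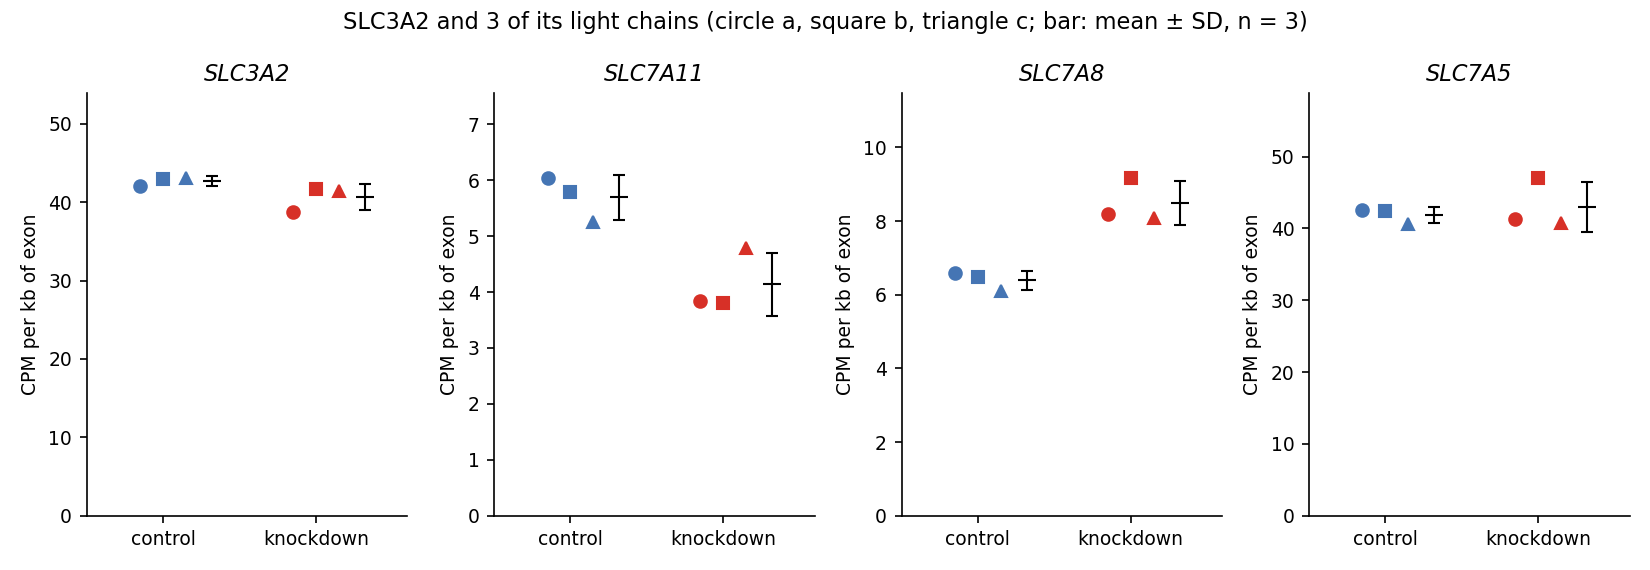
Levels of SLC3A2 and of its light chains SLC7A11, SLC7A8 and SLC7A5 in CPM per kb of exon (vertical axes, from 0) in the 3 control (blue) and 3 knockdown (red) libraries; the symbol gives the library letter and the bar the mean ± SD. SLC7A11 lies lower and SLC7A8 higher in each knockdown library than in any control library, while SLC7A5 overlaps.

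Among genes related to the pathway, 203 outside the 10 were tested, drawn from 10 lists. Of the 203, 4 passed the adjusted threshold in edgeR, 3 lower and 1 higher (1.97%, beside 0.786% of all genes), and 42 had an unadjusted p under 0.05 (20.7%, beside 14.3%), 21 in each direction. The median log2 fold change over the 203 was 0.03, beside 0.02 over all genes. The 10 lists were drawn up with earlier results of these data known, so nothing is read from their shares. The gene that passed upward was SLC7A8. The genes that passed downward were MDM2, CDKN1A and CD44, all in the list on SLC7A11 repression and growth arrest. That name does not give the role of each gene in the list.

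**Figure D5:**
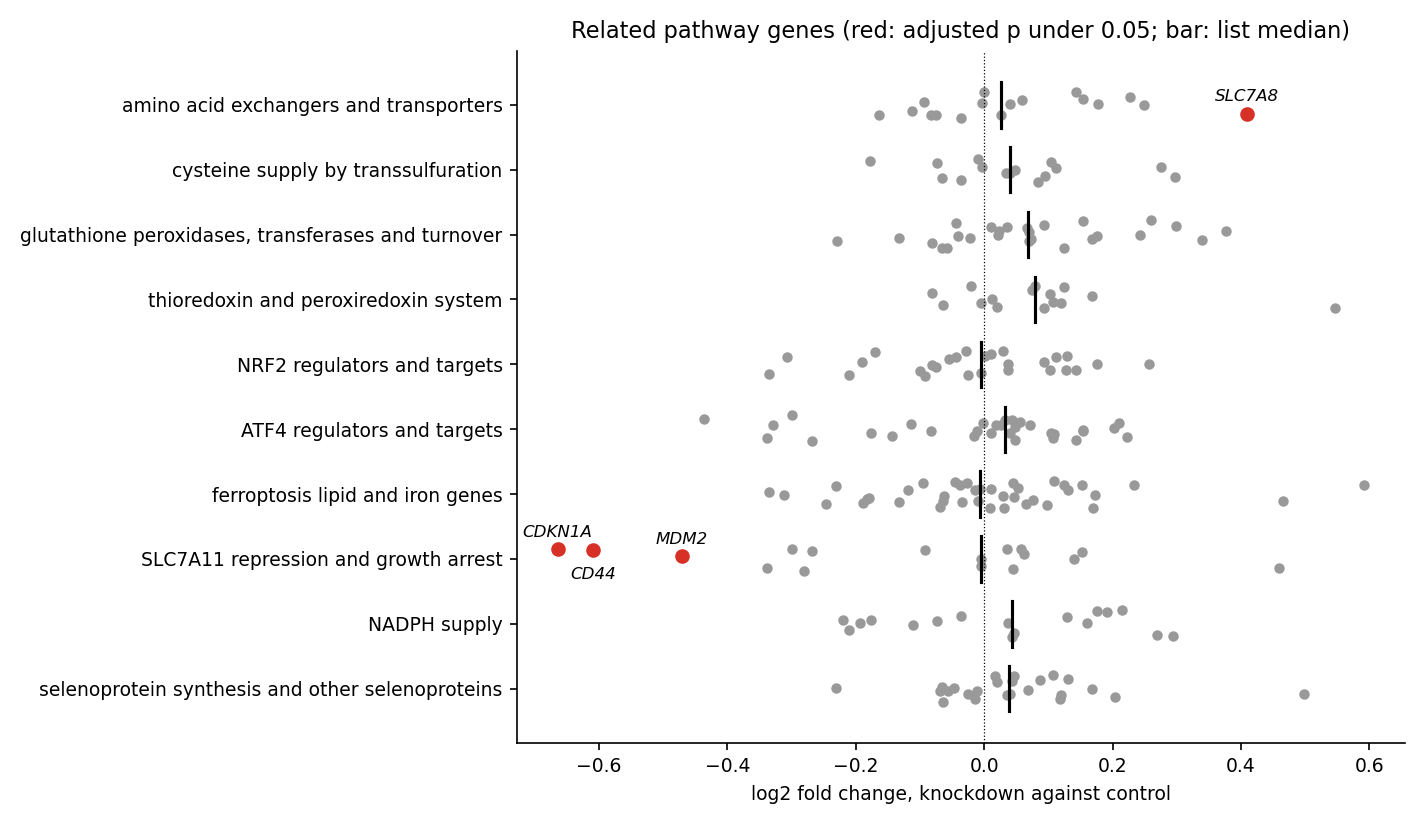
Fitted log2 fold change, knockdown against control (horizontal axis), of each tested gene in 10 related lists (vertical axis); grey points did not pass an adjusted p of 0.05, red ones did, and the bar marks the list median. The red points are SLC7A8 at 0.41, MDM2 at -0.47, CD44 at -0.61 and CDKN1A at -0.66, and the medians lie between -0.007 and 0.08.

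In the list on SLC7A11 repression and growth arrest, 3 of 17 tested genes passed, all lower (17.6%, beside 0.786% of all genes). The list median was -0.005. With these 3 included, 8 of the 17 had an unadjusted p under 0.05 (47.1%), 7 lower and 1 higher. Over all tested genes the shares were 14.3% in either direction, 7.57% lower and 6.68% higher. The list was drawn up with earlier results of these data known, so nothing is read from these shares. CD44, a surface receptor whose variant forms are known to hold SLC7A11 at the membrane, had 11.9, 11.4 and 9.22 CPM with the ALR gapmer and 17.6, 16.4 and 15.9 with the control gapmer. Every knockdown value was below every control value, and CD44 changed by -0.61 ± 0.11 on the log2 scale (edgeR adjusted p = 0.0251). Leaving out knockdown b, control a, control b or control c gave edgeR adjusted p-values of 0.0582, 0.172, 0.121 and 0.156, in that order. Over the 17 alternatives they ran from 2.32e-05 to 0.172, and the direction was the same in each. CD44 shares 84 exon bases with an antisense gene.

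MDM2, a ubiquitin ligase, was lower at -0.47 ± 0.07 (edgeR adjusted p = 0.00652), and CDKN1A, an inhibitor of cyclin-dependent kinases, at -0.66 ± 0.12 (edgeR adjusted p = 0.0240). Earlier results of these data, known when the list was drawn up, already held both, so they give no independent support to a direction. For MDM2 the edgeR adjusted p was 0.0678 when control a was left out and 0.0746 when control b was. For CDKN1A, leaving out knockdown a, knockdown b, control a or control b gave 0.0528, 0.0938, 0.119 and 0.114, in that order, and the direction of both genes was the same in all 17 alternatives. MDM2 overlaps the carboxypeptidase gene CPM and a processed pseudogene, among others, so its counts are uncertain.

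Of 31 tested regulators and targets of ATF4, 0 passed in edgeR, and the list median was 0.03. An unadjusted p under 0.05 was reached by 9 of the 31, 5 lower and 4 higher. Over all tested genes the shares were 14.3% in either direction, 7.57% lower and 6.68% higher. Earlier results of these data were known when the list was drawn up, so nothing is read from this comparison. DESeq2's Wald test called 536 of all 19721 genes, more than the 155 of edgeR, and 2 of these 31, EIF2AK3 and PPP1R15A. The robust edgeR fit called 212 of all genes and 1 of the 31, EIF2AK3, and limma-voom 174 and 0. ATF4 had 170.3 ± 13.7 CPM after knockdown against 162 ± 2.13 in controls (SD, n = 3 each), a fitted change of 0.07 ± 0.07 on the log2 scale. The smallest p-values belonged to EIF2AK3 (PERK, a kinase that raises ATF4; log2 fold change -0.33 ± 0.07, edgeR adjusted p = 0.0611), PPP1R15A (GADD34, which reverses that signal; -0.34 ± 0.08, edgeR adjusted p = 0.0830) and ATF3 (a stress factor; -0.27 ± 0.08, edgeR adjusted p = 0.173). DDIT3 (CHOP, a stress factor downstream of ATF4) had 3.60 ± 0.608 CPM after knockdown against 4.86 ± 0.0991 in controls, without overlap, and -0.44 ± 0.17 on the log2 scale (edgeR adjusted p = 0.263). SESN2 was the other lower gene with an unadjusted p under 0.05 (-0.30 ± 0.09). The 4 higher ones were SHMT2 (0.21 ± 0.07), PHGDH (0.20 ± 0.07), ALDH18A1 (0.15 ± 0.06) and SLC1A5 (0.15 ± 0.07).

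Of 27 tested regulators and targets of NRF2, 0 passed in edgeR, and the list median was -0.005. An unadjusted p under 0.05 was reached by 4 of the 27 (14.8%), all lower. Over all tested genes the share was 14.3% in either direction and 7.57% lower. NFE2L2, the gene of NRF2, had a log2 fold change of -0.10 ± 0.07, and KEAP1, which targets NRF2 for degradation, of 0.13 ± 0.08; both overlapped between groups. The smallest p-values belonged to FTL (ferritin light chain; -0.33 ± 0.08, edgeR adjusted p = 0.0797), BACH1 (a repressor at the same sites; -0.19 ± 0.06, edgeR adjusted p = 0.181) and ME1 (a malic enzyme that makes NADPH; -0.21 ± 0.08, edgeR adjusted p = 0.2585). FTL passed with DESeq2's Wald test and the robust edgeR fit, the only 1 of the 27 to do so, and 0 passed with limma-voom.

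The remaining routes of cysteine supply and thiol chemistry held 0 genes past the adjusted threshold in edgeR. Of 15 tested genes of transsulfuration, which makes cysteine from methionine, 0 had an unadjusted p under 0.05 (median log2 fold change 0.04). Of 26 glutathione peroxidases, transferases and turnover genes, 3 had one (median 0.07), namely GGT1, a surface enzyme that cleaves extracellular glutathione (0.34 ± 0.12), GPX7 (0.38 ± 0.14) and the transferase GSTA4 (-0.23 ± 0.08). Of 15 genes of the thioredoxin and peroxiredoxin system, 2 had one (median 0.08), the methionine sulfoxide reductase MSRB3 (0.55 ± 0.17) and the peroxiredoxin PRDX4 (0.17 ± 0.07). Of 24 genes of selenoprotein synthesis and other selenoproteins, 3 had one (median 0.04), SELENOW (0.20 ± 0.07), SELENOM (0.50 ± 0.20) and SELENOK (-0.23 ± 0.10). The shares with an unadjusted p under 0.05 were 0, 11.5, 13.3 and 12.5% in these 4 lists, in that order, beside 14.3% of all tested genes. DESeq2's Wald test, limma-voom and the robust edgeR fit also called 0 genes of these 4 lists.

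Among 39 tested ferroptosis genes of lipid and iron handling, 0 passed in edgeR and 8 had an unadjusted p under 0.05, 4 in each direction (median -0.007), beside 14.3% of all tested genes in either direction. They included, besides FTL, POR (an electron donor in lipid peroxidation; 0.23 ± 0.07) and ACSL4 (which loads polyunsaturated fatty acids into lipids; 0.17 ± 0.07). Among 17 genes of NADPH supply, 0 passed and 5 had an unadjusted p under 0.05, 3 lower and 2 higher (median 0.04), beside the same 14.3%. These included IDH2 (0.27 ± 0.07), the transhydrogenase NNT (-0.22 ± 0.07) and MTHFD1 (0.19 ± 0.07). Of the 17 tested amino acid transporters, 5 had an unadjusted p under 0.05, all higher, beside 6.68% of all tested genes in that direction, and besides SLC7A8 these included the arginine and lysine carrier SLC7A3 (0.23 ± 0.07) and the glutamate transporter SLC1A3 (0.25 ± 0.10). DESeq2's Wald test and the robust edgeR fit called 1 ferroptosis gene (FTL), limma-voom 0, and all 3 called 0 NADPH genes.

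The genes whose levels over the 6 libraries were most like those of SLC7A11 were sought among 15139 genes with a mean count of at least 50, by Pearson's r of log2 CPM. All points share the same 6 libraries and the same scaling, and the 2 groups set much of any r, so the values are a description. The highest r belonged to NKIRAS1 (0.998), HSPBAP1 (0.994), FNDC3A (0.991), the long noncoding RNA MIAT (0.989) and GOSR1 (0.989). The lowest belonged to MTHFD1 (-0.994), TNS1 (-0.991), TMEM98 (-0.990), CENPA (-0.988) and ADAMTS1 (-0.986). In all, 575 genes had an r of at least 0.9 and 260 of at most -0.9. Of the other 9 genes of the pathway, GCLC (0.837) and SLC3A2 (0.695) were the most alike, and the other 7 ranged from -0.383 for GPX4 to 0.225 for TXNRD1.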

How the data were processed

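The authors deposited raw read counts per gene symbol for 6 libraries, 3 per group, as whole numbers that differ in their column totals. Trimmomatic 0.39, STAR 2.7.8a, featureCounts, Subread 2.14.2 and the build hg38 are named in the submitters' processing notes; annotation, strand setting and treatment of reads that map to several places are not given in the sources used here. Libraries were grouped by title. Per the labels' protocols, libraries were made with a directional kit from total RNA.

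Genes were tested with edgeR 4.0.16 (R 4.3.3): filterByExpr defaults, TMM scaling, quasi-likelihood F-test with group as the only term, two-sided, Benjamini-Hochberg adjustment over all 19721 tested genes, threshold 0.05. CPM were computed on TMM-scaled library sizes. The biological coefficient of variation common to all genes was 0.103. Intervals are 95% intervals from the fit and SE is the log2 fold change over the root of F. Positions and exon lengths come from GENCODE 29, matched by symbol (31499 rows by name, 1301 by an older symbol); the authors' annotation may differ, which changes levels per kb. The table's row for SELENOF was not identified. The procedure was also tested on simulated counts, which were not made to hold an outlying library. No result given here rests on that run.

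The 10 genes and the related lists were chosen with earlier results of these data known. Named from each list were genes past the threshold and up to 3 with the smallest unadjusted p under 0.05, together with fixed regulators and markers and the 5 genes most like and most unlike SLC7A11 (log2 CPM with a prior count of 2). In the ATF4 list, all 9 genes with an unadjusted p under 0.05 were named. Alternatives were other scalings, DESeq2 1.42.0, limma-voom (limma 3.58.1), a robust fit, other filters, a replicate block, each library left out, and removal of the trend on exon length or GC (natural spline, 5 degrees of freedom, fitted on the 15967 genes, 81% of those tested, for which both were known). A gene of the naming rule, and the promoter motif tied to it, are not reported here.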

Additional observations from a re-analysis of the deposited data

How the results depend on the processing

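SLC7A11 was lower in all 17 alternatives and passed the threshold in 9. It did not pass with library size alone (-0.43), upper-quartile scaling (-0.44) or a mean count of at least 50 (-0.46), where 0 of the 10 genes passed. In the 6 fits that left out a library it ranged from -0.60 to -0.41, with 0 to 1 of the 10 genes past the threshold. The other 9 genes passed in 0 of 17. Their sign differed from the reported one in 7 of the 17 for GSR, 6 for GSS, 5 for GCLM and 2 for CHAC1. It differed in 1 for GPX4 and AIFM2 each, and in 0 for SLC3A2, GCLC and TXNRD1. Over all genes the count of calls was 536 with DESeq2's Wald test, 1064 with no filter, 290 with the length trend removed, 238 with the GC trend removed and 26 to 1309 with a library left out. Related pathway genes past the threshold numbered 9, 11, 8 and 7 in the same order, and 0 to 15 with a library left out. What causes these differences was not tested. Whether libraries that share a letter were made as pairs is not known. Correlations of deviations were 1.23e-05, 0.116 and -0.0251 for a, b and c. With so few libraries per group they cannot decide this. With the replicate block, 393 genes and 8 related genes passed, beside 155 genes in the reported setting, and SLC7A11 was at -0.47. The 10 genes most like and unlike SLC7A11 were all named again with a prior count of 0.5. CHAC1, with 146 to 234 counts per library, was limited most by depth.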

Other observations

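Knockdown library a, which had counts in the most rows, also held the highest counts of SLC7A13 and KLF17, both near 0 in the other libraries. SLC7A13, a light chain of the kidney, had 36 counts in knockdown library a, against 3 and 4 in the other knockdown libraries and 8 to 10 in controls. KLF17 had 10 counts there, against 4 and 1 in the other knockdown libraries and 1 to 3 in controls.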
